A study of Mus musculus with 12 samples.

Results

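The insulin-like growth factor (IGF) axis and the long non-coding RNA H19 were examined in synovial fibroblasts of healthy and arthritic mice. The set holds 9 of the 32285 genes in the count matrices: the ligand genes Igf1 and Igf2, the receptor gene Igf1r, the binding protein genes Igfbp3, Igfbp4, Igfbp5, Igfbp6 and Igfbp7, and H19. Each symbol had 1 entry. The genes were selected on their levels in these same cells, so the members' levels and differences are a description and carry no test.

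All animals were R5 x R26tdTomato mice of 8 to 10 weeks with the genotype Il5 wt/Cre; R26 tdTom/tdTom. Healthy and arthritic mice alike thus carried a Cre at the Il5 locus and a tdTomato reporter at R26. Viable CD45- GR-1- cells were sorted from ankle and wrist joints and read with 10x 3′ chemistry. Arthritis was serum transfer arthritis (STA), in which transferred serum sets off joint inflammation. The time after transfer is not given in the sources used here. Experiment 1 had 1 well with a healthy, an STA and an STA + Il23mc hashtag, and experiment 2 had 1 well with a healthy, a mild STA and a severe STA hashtag; a hashtag is an antibody barcode that marks the cells of one source. The labels do not spell out Il23mc. They give 4 pooled animals per well against 3 hashtags, so the number of animals behind a hashtag is not known. Healthy thus had n = 2 hashtags, STA n = 3 and STA + Il23mc n = 1, and the spread between hashtags may hold only a few animals.

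The authors' cell table assigned 3325 cells of both wells to 5 fibroblast classes, named Mmp3+, Il6+, Pi16+, Lining and Cd200+. The hashtags held 268 to 953 of these cells and 3103104 to 17064647 unique molecular identifiers (UMIs), the counts of single RNA molecules. The class names matched their marker genes: Mmp3 stood at 2551 UMIs per 1000000 UMIs of the sum (CPM) in Mmp3+ cells and at 180 to 827 CPM in the other fibroblast classes, and the lubricin gene Prg4 reached 71561 CPM in Lining cells. A further 223 cells named Osteoblasts or Chondrocytes were left out of the sums. The cartilage collagen gene Col2a1 was higher in the former (8452 CPM) than in the latter (558 CPM), against their names. Ddx3y, a Y-linked gene, was at 0.1699 CPM in the mild STA hashtag and at 28.5 to 59.0 CPM in the other 5. The X-linked gene Xist was at 815 CPM in mild STA and at 243 to 531 CPM in the other 5. The mild hashtag thus stood apart in both sex-linked genes from the STA hashtags it was grouped with. No cell barcode was kept in both wells.

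Igf1 and Igf2 encode secreted growth factors that act on cells through the receptor tyrosine kinase encoded by Igf1r. IGF binding proteins hold the ligands in body fluids and matrix, prolong their life and keep them from the receptor or release them near it, and several also act without a ligand. Igfbp7 binds IGFs only weakly and is found in vessel walls and stroma. H19 and Igf2 lie side by side in an imprinted domain, where H19 is read from the maternal copy and Igf2 from the paternal copy. Both are abundant in fetal tissues and decline after birth.

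H19 lies at chr7:142575529-142578143 and Igf2 at chr7:142650766-142666816, both on the minus strand (mm10, GENCODE M21), 72.6 kb apart. H19 is annotated as a long intergenic RNA. The microRNA miR-675 is cut from H19 RNA and lies within exon 1 of the transcripts H19-202 and H19-205 and exon 2 of H19-206, 3 of the 7 annotated transcripts. Its mature forms are shown because H19 had the widest difference of the set; capitals mark the seed, bases 2 to 8 (RefSeq, GRCm38.p6). The 3′ libraries counted H19 RNA and did not measure the microRNA.
mmu-miR-675-5p, chr7:142577112-142577133: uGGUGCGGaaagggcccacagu
mmu-miR-675-3p, chr7:142577078-142577099: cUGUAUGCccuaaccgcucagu

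Igfbp4 and Igfbp6 stood apart between healthy and arthritic hashtags in opposite directions, and the 250 bases before their starts are printed for that reason (RefSeq, GRCm38.p6, plus strand). RefSeq windows matched 8 of the 9 members (11 windows, 4 of them for Igf2; H19 had none). Both strands were searched for the TATA box motif TATAAA, the CCAAT box, the GC box motif GGGCGG and the AP-1 motif TGANTCA, and capitals mark each match. Of 32851 RefSeq windows of the same length, 12.4% held the TATA box motif, 33.8% the CCAAT box, 32.7% the GC box motif and 6.75% the AP-1 motif. The matches in both windows did not overlap each other.
Igfbp4, chr11:99040994-99041243: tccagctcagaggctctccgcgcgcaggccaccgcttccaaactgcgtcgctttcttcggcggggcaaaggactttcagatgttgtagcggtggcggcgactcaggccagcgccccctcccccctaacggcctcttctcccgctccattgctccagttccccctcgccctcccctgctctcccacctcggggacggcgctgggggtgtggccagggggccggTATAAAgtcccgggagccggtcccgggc
Igfbp6, chr15:102143936-102144185: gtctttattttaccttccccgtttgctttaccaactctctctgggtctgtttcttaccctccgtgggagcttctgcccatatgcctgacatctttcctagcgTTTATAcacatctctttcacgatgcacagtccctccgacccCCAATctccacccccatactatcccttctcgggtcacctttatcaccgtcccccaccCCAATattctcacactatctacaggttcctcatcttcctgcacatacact
The Igfbp4 window held a TATA box motif 28 bases before the start and none of the other 3 motifs. The Igfbp6 window held a TATA match on the other strand 148 bases before the start and the CCAAT box 107 and 50 bases before it. GENCODE M21 starts Igfbp6 176 bases further downstream, so these distances depend on the annotation. A match is a stretch of letters and no measured binding site.

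Of the ligands, Igf1 was the more abundant, and its levels in the summed fibroblasts overlapped between conditions. It stood at 781 and 1058 CPM in the healthy hashtags of experiments 1 and 2, at 1319 CPM in STA of experiment 1, at 1075 and 1043 CPM in mild and severe STA, and at 971 CPM with Il23mc. Only the STA hashtag of experiment 1 lay above both healthy values. Fitted with edgeR, with a term for the experiment, the log2 fold change of STA over healthy was 0.33 ± 0.18 (SE). Within experiment 1 the log2 ratio was 0.76, and within experiment 2 it was 0.02 for mild and -0.02 for severe STA. Without the cells of the Mmp3+ class the fitted value turned to -0.13 ± 0.20. The classes went opposite ways in experiment 2. In the 29 healthy Mmp3+ cells Igf1 stood at 441 CPM. Mmp3+ cells of mild and severe STA had 1238 and 1059 CPM (log2 ratios 1.49 and 1.26). In Pi16+ cells Igf1 stood at 1206 CPM in healthy and at 792 and 817 CPM in mild and severe STA (-0.61 and -0.56). In experiment 1 the Pi16+ ratio was 0.26. There the 10 healthy Mmp3+ cells held 200 Igf1 UMIs of 179624, and the Mmp3+ cells of STA 18730 of 13310572. The difference between the classes was not tested.

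Igf2 stood far lower, at 29.8 and 45.8 CPM in healthy, 14.1 CPM in STA of experiment 1, 34.3 and 25.8 CPM in mild and severe STA, and 15.4 CPM with Il23mc. Each STA hashtag lay below the healthy hashtag of its own experiment, although the groups overlapped across experiments. The fitted log2 fold change was -0.79 ± 0.18 (SE). Within experiment 1 the log2 ratio was -1.08, and in experiment 2 it was -0.42 for mild and -0.83 for severe STA. Few cells carried the Igf2 RNA: the 5% of fibroblasts with the most Igf2 UMIs held 91.0% of them in STA of experiment 1 and 50.98% in healthy of that experiment.

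Igf1r, the receptor gene, stood at 105 and 96.0 CPM in healthy and at 50.4, 91.4 and 71.2 CPM in the STA, mild STA and severe STA hashtags. All 3 STA values lay below both healthy ones, the mild hashtag by the smallest margin. The fit gave a log2 fold change of -0.59 ± 0.20 (SE), and the STA + Il23mc hashtag stood at 61.1 CPM. Without the Mmp3+ cells the fitted value was -0.30 ± 0.19. Inside classes it was 0.003 ± 0.21 in Il6+ and -0.47 ± 0.27 in Pi16+ cells, so Il6+ cells did not show the lower level of the sum. For STA, mild and severe STA the log2 ratios were -0.29, 0.40 and 0.35 in Il6+ cells and -1.30, 0.34 and -0.16 in Pi16+ cells.

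Among the binding proteins, Igfbp4, a secreted inhibitor of IGF action, was higher in arthritis. It stood at 918 and 747 CPM in healthy, at 2444 CPM in STA of experiment 1, at 2301 and 2221 CPM in mild and severe STA, and at 2011 CPM with Il23mc. Every arthritic hashtag was above both healthy ones, and the means were 832 ± 120 CPM (SD, n = 2) in healthy and 2322 ± 113 CPM (SD, n = 3) in STA. Its log2 fold change was 1.54 ± 0.10 (SE), or 2.90-fold.

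Igfbp6, a binding protein with a preference for IGF2, went the other way. It stood at 1440 and 1974 CPM in healthy, at 448 CPM in STA of experiment 1, at 524 and 551 CPM in mild and severe STA, and at 345 CPM with Il23mc. The STA hashtags lay close together, at 508 ± 53.6 CPM (SD, n = 3), and well below the healthy ones, at 1707 ± 378 CPM (SD, n = 2). The log2 fold change was -1.78 ± 0.10 (SE), or 3.43-fold lower. Within the experiments the log2 ratios were -1.69, -1.91 and -1.84.

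Igfbp5, a matrix-bound member of the family, stood at 2995 and 2215 CPM in healthy, at 1523, 1703 and 1740 CPM in STA, mild and severe STA, and at 995 CPM with Il23mc. All arthritic values lay below both healthy ones. The log2 fold change of the summed fibroblasts was -0.61 ± 0.14 (SE); without the Mmp3+ cells it was 0.04 ± 0.10, and so it turned with the class left out.

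Igfbp3, the main carrier of IGFs in blood, varied most between healthy hashtags. It stood at 28.0 CPM in experiment 1 and at 179 CPM in experiment 2, at 25.3, 52.0 and 65.3 CPM in STA, mild and severe STA, and at 77.9 CPM with Il23mc. In healthy of experiment 2 the Pi16+ cells held 481 of the 555 UMIs (86.7%, 95% exact binomial interval 83.6 to 89.4), and the 13 fibroblasts with the most Igfbp3 held 94.1%. The log2 fold change of -1.07 ± 0.30 (SE) was -0.15 without that hashtag. The share of fibroblasts with an Igfbp3 UMI had the opposite order to the level, at 7.84 and 11.9% in healthy and 20.6, 24.7 and 24.7% in STA, mild and severe STA. With each cell thinned to 3000 UMIs it was 4.91 and 6.56% against 7.39, 8.70 and 12.0%. Intervals of this kind cover counting error only.

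In the summed fibroblasts Igfbp7 showed no difference beyond the spread between hashtags. It stood at 803 and 1523 CPM in healthy, at 859, 1508 and 1449 CPM in STA, mild and severe STA, and at 1071 CPM with Il23mc. Values followed the experiment: both low values were those of healthy and STA in experiment 1, and the log2 fold change was 0.03 ± 0.10 (SE). Classes went different ways within the experiments. In Il6+ cells the log2 ratios were 0.30, 0.40 and 0.29 for STA, mild and severe STA (fitted 0.23 ± 0.15). In Mmp3+ cells of experiment 2 they were -0.56 and -0.71 for mild and severe STA, against 29 healthy cells. The difference between these classes was not tested.

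H19 had the widest difference of the 9 genes. It stood at 32.1 and 35.4 CPM in healthy, at 237 CPM in STA of experiment 1, at 405 and 317 CPM in mild and severe STA, and at 315 CPM with Il23mc. The lowest arthritic hashtag was thus far above the higher of the healthy ones. The log2 fold change was 3.16 ± 0.19 (SE), 8.92-fold, and the log2 ratios within the experiments were 2.88, 3.51 and 3.16. Igf2, its neighbour in the imprinted domain, differed in the opposite direction in the same 3 comparisons of summed fibroblasts. Within Mmp3+ cells of experiment 2 Igf2 was not lower in STA. It stood there at 13.4 CPM in healthy (6 UMIs) and at 32.9 and 16.4 CPM in mild and severe STA.

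**Figure D1:**
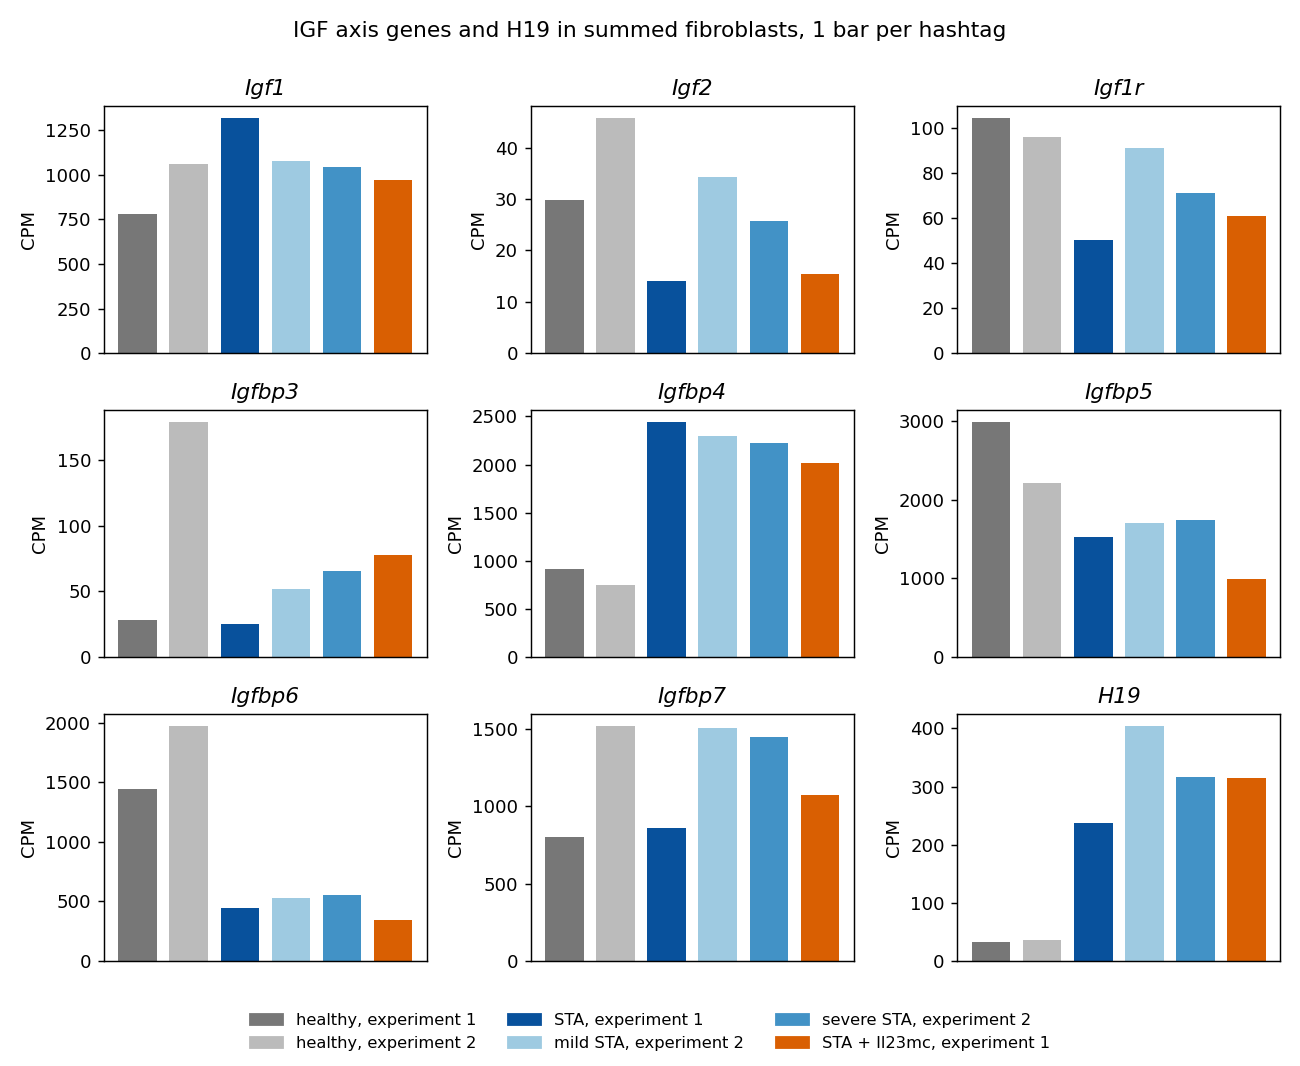
Level of each gene in the summed fibroblasts, in UMIs per 1000000 (CPM, linear axis from 0, own scale per panel), 1 bar per hashtag, grey for healthy, blue for STA and orange for STA + Il23mc. H19 stood between 237 and 405 CPM in all arthritic hashtags against 32.1 and 35.4 CPM in healthy, and Igfbp6 showed the reverse order.

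In all, 5 of the 9 genes had STA and healthy hashtags that did not overlap, 2 with STA above (Igfbp4, H19) and 3 with STA below (Igf1r, Igfbp5, Igfbp6). Of the 12200 genes tested, 43.0% did not overlap. At an adjusted p under 0.05 in edgeR (Benjamini-Hochberg over all genes), 6 of the 9 members were called, Igfbp4 and H19 higher and Igf2, Igfbp3, Igfbp5 and Igfbp6 lower. The share called over all genes was 20.3%, with 10.5% higher and 9.88% lower in STA. As the members were selected on this contrast, nothing is read from these counts.

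The makeup of the fibroblasts changed with arthritis as well. Mmp3+ cells were 10 of 408 fibroblasts (2.45%, exact interval 1.18 to 4.46) and 29 of 268 (10.8%, 7.37 to 15.2) in healthy, and 40.6 to 69.5% in the 4 arthritic hashtags. Pi16+ cells were 50.2 and 47.0% in healthy and 5.77 to 22.3% in arthritis. Lining cells differed between the healthy hashtags themselves, at 12.0% in experiment 1 and 2.24% in experiment 2, and were 1.78 to 5.73% in arthritis. Of the UMIs of all genes they held 20.3 and 3.66% in healthy. What this imbalance adds to the healthy levels of the members was not tested. Fibroblasts of arthritic hashtags also held more UMIs per cell, with a median of 14558.5 to 17545 UMIs against 7557.5 and 10818.5 in healthy. In summed cells, fewer cells of a class and less RNA per cell cannot be told apart. Markers of other cell types moved with the condition too: the 6 chondrocyte markers, all detected in each hashtag, summed to 36.8 and 70.3 CPM in healthy and 160 to 260 CPM in STA. Most of that sum was Acan, at 112 to 210 CPM in STA and at 201 CPM in Mmp3+ cells over all hashtags, while Col2a1 overlapped between the groups (4.97 and 24.2 CPM against 15.6, 17.5 and 27.7 CPM). The 2 cycling markers summed to 21.6 and 36.4 CPM in healthy and 41.3 to 92.6 CPM in STA, and the 5 skeletal muscle markers to 51.7 and 53.2 CPM against 22.0 to 40.1 CPM. The 6 osteoblast markers summed to 292 and 108 CPM in healthy and 37.5 to 73.4 CPM in STA (Dmp1 was at 0 in all STA hashtags), and the 3 adipocyte markers to 16.9 and 9.35 CPM against 0.358 to 1.19 CPM (Cidec was at 0 in STA). Class makeup is addressed below by fits within Il6+ and Pi16+ cells and by equal class weights. Mmp3+ cells were too few in healthy for a fit of their own, so the part of makeup was not measured for that class. H19 and Igfbp3 are also given at equal depth per cell, as shares of cells with a UMI. The part of depth in the other genes, and of these markers in any, was not tested.

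**Figure D2:**
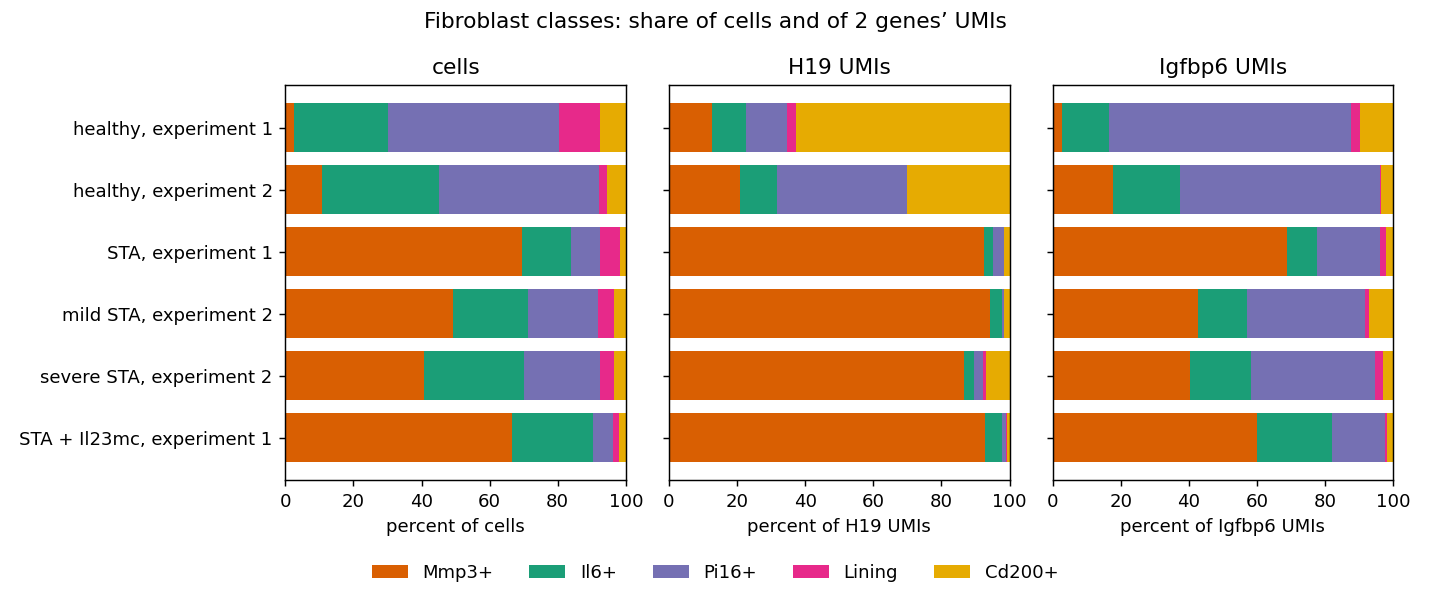
Share of each hashtag's fibroblasts (left), of its H19 UMIs (middle) and of its Igfbp6 UMIs (right) that came from each fibroblast class, in percent, 1 bar per hashtag. Mmp3+ cells held 86.7 to 94.4% of the H19 UMIs in arthritis, and 59.0 to 80.2% of the UMIs of all genes. In healthy of experiment 1 Cd200+ cells held the most (62.7%), and in healthy of experiment 2 Pi16+ (38.2%) and Cd200+ cells (30.0%) did.

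H19 UMIs were spread over several classes in healthy and came mostly from Mmp3+ cells in arthritis. In healthy of experiment 1, 31 Cd200+ cells held 69 of 110 UMIs (62.7%, exact interval 53.0 to 71.8) and the 10 Mmp3+ cells held 14 (12.7%). In healthy of experiment 2, 126 Pi16+ cells held 42 of 110 UMIs (38.2%, 29.1 to 47.9), 15 Cd200+ cells 33 (30.0%, 21.6 to 39.5) and 29 Mmp3+ cells 23 (20.9%, 13.7 to 29.7). The healthy hashtags thus differed in the class with the most H19 UMIs. In STA the Mmp3+ cells held 92.5% of the UMIs in experiment 1, and 94.4 and 86.7% in mild and severe STA. Of the UMIs of all genes these cells held 5.25 and 14.4% in healthy and 80.2, 68.2 and 59.0% in STA, mild and severe STA. Their H19 level was 273, 560 and 466 CPM there, 370 CPM with Il23mc and 51.5 CPM in the 29 healthy Mmp3+ cells of experiment 2. Cd200+ cells had H19 at 298 CPM in healthy of experiment 1 already. Lining cells had next to none, with 3 UMIs in 49 healthy and 4 UMIs in 54 STA cells of experiment 1.

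The share of cells with an H19 UMI moved in the same direction. It was 8.58% (exact interval 6.05 to 11.7) and 11.2% (7.68 to 15.6) of fibroblasts in healthy and 27.0 to 37.1% in the arthritic hashtags. With each cell thinned to 3000 UMIs, it was 4.39 and 6.95% in healthy and 16.3 to 24.5% in arthritis. Thinning left out 7 to 23 cells per hashtag. The difference over all classes together was thus also present at equal depth. In Mmp3+ cells alone the thinned shares in healthy were 20% (2.52 to 55.6, 10 cells) and 14.8% (4.19 to 33.7, 27 cells). In STA, mild and severe STA they were 24.1, 36.8 and 29.9%, with intervals that overlapped those of healthy. In Lining cells, whose median depth was 13415 and 15326.5 UMIs in healthy and STA of experiment 1, the shares were 6.12 and 7.41% before thinning. H19 was uneven among cells, and the 5% of fibroblasts with the most H19 held 49.8 to 71.8% of its UMIs in the arthritic hashtags.

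Il6+ and Pi16+ were the classes with at least 20 cells in every hashtag, and STA was compared with healthy inside each. In Il6+ cells, H19 stood at 14.9 and 12.2 CPM in healthy and at 81.7, 113 and 47.4 CPM in STA, mild and severe STA, a log2 fold change of 2.44 ± 0.41 (SE). Igfbp4 stood at 1080 and 905 CPM in healthy and at 3071, 2189 and 2578 CPM in STA (1.35 ± 0.16), and Igfbp6 at 922 and 1234 CPM against 495, 604 and 511 CPM (-1.13 ± 0.16). The hashtags of the 2 groups did not overlap in Il6+ cells for these 3 genes. The H19 level there rested on few cells: 7, 3 and 7 cells held 80.7, 81.7 and 88.2% of its UMIs in STA, mild and severe STA. Thinned to 3000 UMIs, Il6+ cells with H19 were 4.90 and 3.33% in healthy and 7.20, 8.06 and 3.73% in STA, mild and severe STA, so these shares overlapped. In Il6+ cells 3 of the 9 members were called, while 2.50% of the 7946 genes tested were. The members were selected on this contrast, so nothing is read from that count.

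In Pi16+ cells, Igfbp4 stood at 895 and 779 CPM in healthy and at 1984, 1097 and 1375 CPM in STA, mild and severe STA (log2 fold change 0.87 ± 0.17). Igfbp6 stood at 2213 and 2525 CPM against 1526, 1639 and 1434 CPM (-0.65 ± 0.13). H19 did not separate the groups here, with 8.22 and 29.6 CPM in healthy and 137, 19.98 and 58.8 CPM in STA; the mild hashtag lay below healthy of experiment 2, on 13 and 42 UMIs. In Pi16+ cells 3 of the 9 members were called (Igfbp3, Igfbp4 and Igfbp6), while 0.744% of the 9137 genes tested were. Given how the members were selected, nothing is read from this count either. Without the STA hashtag of experiment 1, Igfbp3 alone of the 9 was called in Pi16+ cells. That gene rested on few cells, since 6 Pi16+ cells held 96.5% of its UMIs in healthy of experiment 2. The share of Pi16+ cells with an Igfbp3 UMI had the other order in that experiment, at 10.3% in healthy, 15.5% in mild and 18.1% in severe STA; thinned to 3000 UMIs it was 9.02, 7.27 and 14.4%.

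Igfbp5 and Igf2 behaved differently within the classes. Igfbp5 in Pi16+ cells was 3215 and 2776 CPM in healthy and 4228, 3517 and 3200 CPM in STA (log2 fold change 0.32 ± 0.12), and in Il6+ cells it differed by 0.22 ± 0.16, so these 2 classes did not show the lower level of the sum. Mmp3+ cells did: in experiment 2 Igfbp5 stood there at 1864 CPM in the 29 healthy cells. In mild and severe STA it was 1228 and 1409 CPM (log2 ratios -0.60 and -0.40). Cd200+ cells, 10 to 31 per hashtag, also had less in STA. Igfbp5 was 1134 of their 231510 and 739 of their 141494 UMIs in healthy. In STA, mild and severe STA it was 657 of 199907, 140 of 127533 and 272 of 204593 UMIs. Mmp3+ cells, the class with the most cells in each arthritic hashtag, had Igfbp5 at 1141 to 1409 CPM in STA, below Pi16+ cells of the same hashtags in every case. Igf2 in Il6+ cells was 40.7 and 50.9 CPM in healthy and 8.999, 35.8 and 28.7 CPM in STA (-1.24 ± 0.32). In Pi16+ cells it differed by -0.81 ± 0.28. Mmp3+ cells of experiment 2 went the other way, on 6 healthy Igf2 UMIs. Their log2 ratios were 1.29 (counting interval 0.13 to 2.77) in mild and 0.29 (-0.90 to 1.78) in severe STA. With the 4 classes of at least 10 cells in every hashtag weighted equally, the log2 differences were 1.46 ± 0.10 for Igfbp4, -1.03 ± 0.14 for Igfbp6, 1.495 ± 0.22 for H19, -0.43 ± 0.11 for Igfbp5 and -0.48 ± 0.26 for Igf2.

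**Figure D3:**
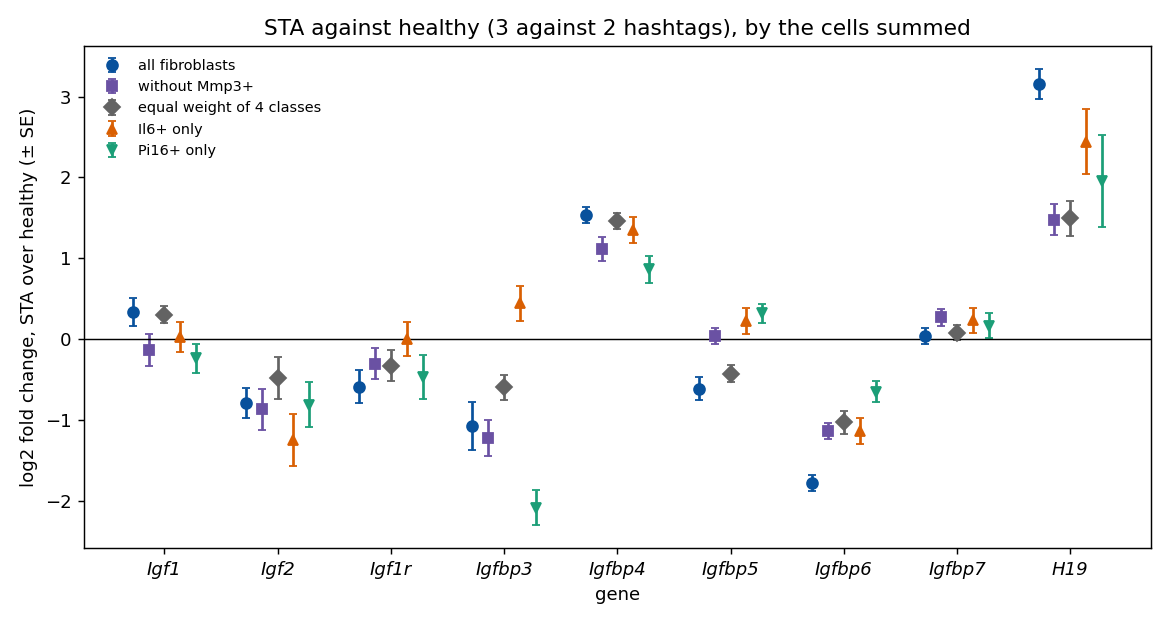
Log2 fold change of STA over healthy with its SE (3 against 2 hashtags) for each gene, by the cells summed: all fibroblasts, without Mmp3+ cells, equal weight of 4 classes, Il6+ only and Pi16+ only. H19 and Igfbp4 stayed above 0 and Igfbp6 below 0 in all 5, while Igfbp5 lay at -0.61 in the sum and at 0.32 in Pi16+ cells. The size for H19 depended on the cells: 3.16 in the sum, 1.48 without Mmp3+ cells, 1.495 with equal weights, 2.44 in Il6+ cells and 1.96 ± 0.57 in Pi16+ cells.

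Across classes each gene had its own place, given here as levels in hashtags with at least 20 cells of a class. Igf1 ran at 933 to 1468 CPM in Il6+ and 792 to 1206 CPM in Pi16+ cells, and at only 61.2 and 96.4 CPM in Lining cells. Igf2 was highest in Cd200+ cells, at 90.7 CPM in healthy of experiment 1 and 232 CPM with Il23mc, and at or below 4.70 CPM in Lining cells. Igf1r varied little by comparison, from medians of 53.3 CPM in Mmp3+ to 115 CPM in Cd200+ cells, and the ranges of Il6+, Pi16+ and Mmp3+ cells overlapped.

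Of the binding proteins, Igfbp6 had its highest median in Pi16+ cells (1597 CPM, range 1434 to 2525) and was at 163 and 197 CPM in Lining cells. The 29 healthy Mmp3+ cells of experiment 2 (2427 CPM) and the 31 healthy Cd200+ cells of experiment 1 (2060 CPM) reached the range of Pi16+ cells. Igfbp5 was high in Lining (3627 and 3869 CPM) and Pi16+ cells (1898 to 4228 CPM), which did not differ beyond their spread. Cd200+ cells had 4898 CPM in healthy of experiment 1 and 1622 CPM with Il23mc. Il6+ cells were lower (603 to 1744 CPM). Igfbp7 ran at 1293 to 2320 CPM in Il6+ cells and at 181 and 361 CPM in Lining cells. The order of classes for Igfbp4 depended on the condition. In healthy of experiment 2 it was lowest in Mmp3+ cells (414 CPM, against 779 CPM in Pi16+ and 905 CPM in Il6+ cells), and in mild STA it was highest there (2709 CPM, against 1097 and 2189 CPM). Medians over hashtags mix the conditions, and Mmp3+ cells had only 1 healthy sum of at least 20 cells. These classes were made from the same cells and genes, so the differences between them are a description.

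**Figure D4:**
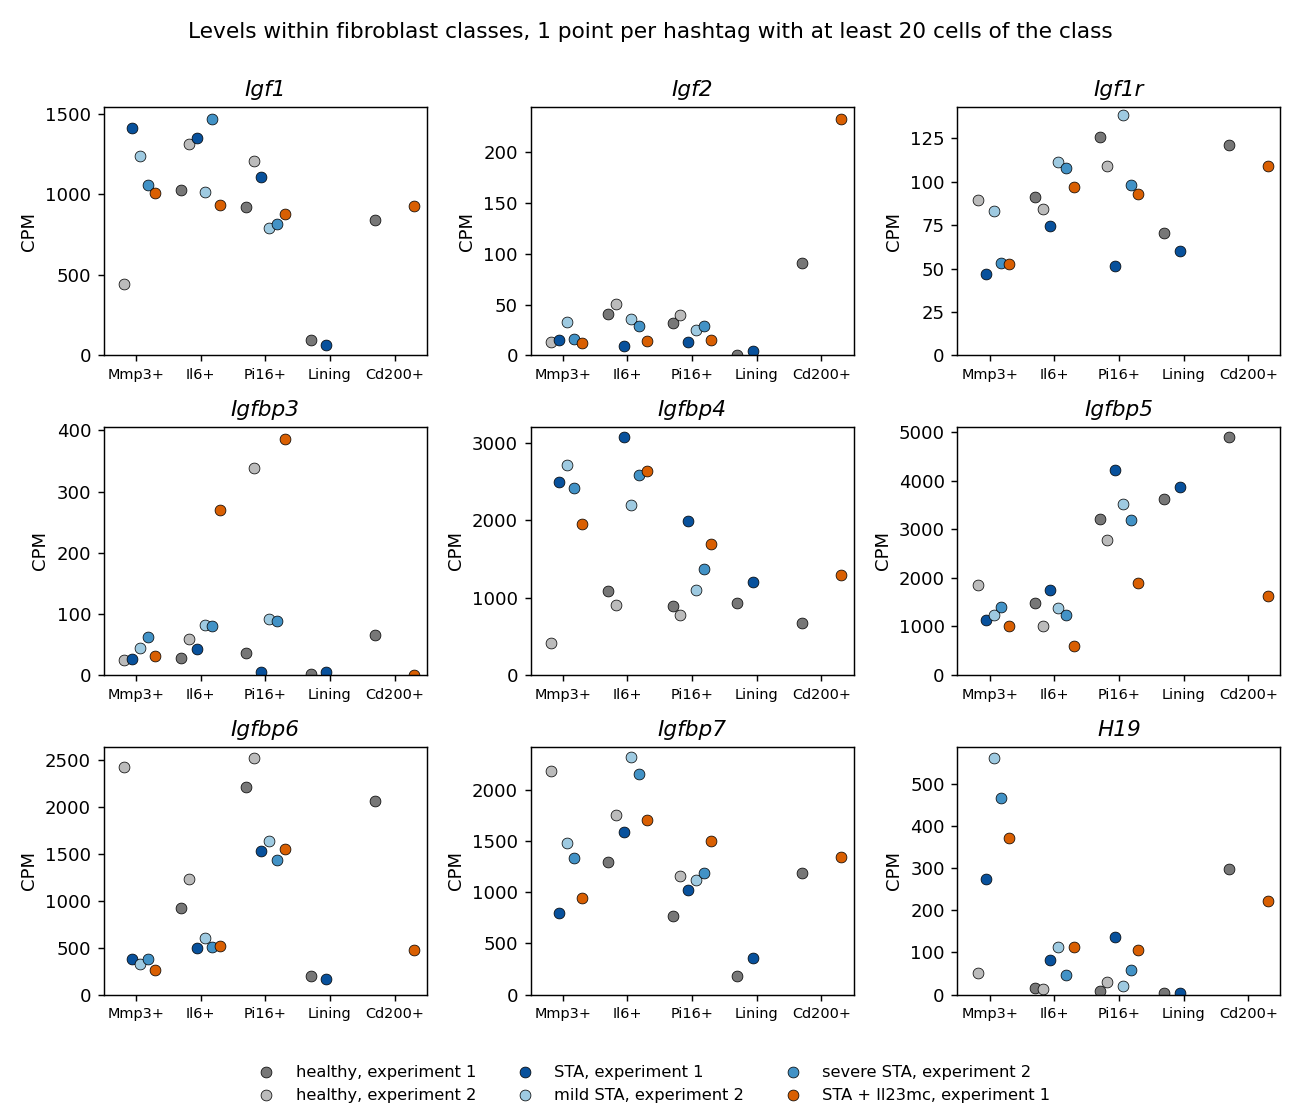
Level of each gene (CPM, linear axis from 0) in each fibroblast class, 1 point per hashtag with at least 20 cells of the class, grey for healthy, blue for STA and orange for STA + Il23mc. Igfbp6 ran at 1434 to 2525 CPM in Pi16+ cells, and H19 at 273 to 560 CPM in Mmp3+ cells of arthritic hashtags.

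The STA + Il23mc hashtag was set against the STA hashtag of the same well, 1 against 1 and so without a test. Among genes with at least 50 UMIs in 1 of the 2, 4.02% of 10812 differed by over 2-fold, and their median log2 ratio was -0.24. Of the 9 members only Igfbp3 did, at 77.9 against 25.3 CPM, a log2 ratio of 1.62 (95% exact binomial counting interval 1.47 to 1.79). The Il6+ cells had 269 against 42.7 CPM (682 and 57 UMIs) and the Pi16+ cells 386 against 4.45 CPM (225 and 4 UMIs), but the Mmp3+ cells only 31.4 against 26.2 CPM. Igfbp5 was lower with Il23mc, at 995 against 1523 CPM (log2 ratio -0.61, -0.64 to -0.59), and more so in Il6+ (-1.53) and Pi16+ cells (-1.16) than in Mmp3+ cells (-0.17). Differences of H19 (0.41), Igfbp7 (0.32) and Igf1r (0.28) were above that median of all genes and those of Igf1 (-0.44) and Igfbp6 (-0.37) below it. By class the H19 ratio was 0.44 in Mmp3+, 0.45 in Il6+ and -0.36 in Pi16+ cells, and with classes weighted equally it was 0.025.

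Severe and mild STA, 1 hashtag each in the well of experiment 2, differed by under 2-fold in each of these genes. Of 9549 genes 1.83% differed by over 2-fold, and none of the 9 members did. The widest log2 ratios of severe over mild were -0.41 (counting interval -0.70 to -0.13) for Igf2, -0.36 (-0.53 to -0.19) for Igf1r, -0.35 (-0.43 to -0.27) for H19 and 0.33 (0.12 to 0.54) for Igfbp3. H19 was lower in severe than in mild Il6+ cells (-1.25, -1.72 to -0.78) and higher in severe Pi16+ cells (1.56, 0.69 to 2.54), where it rested on 69 and 13 UMIs, and with classes weighted equally its ratio turned to 0.59. The mild hashtag also stood apart in the sex-linked genes Ddx3y and Xist, and with 1 hashtag per grade severity and hashtag cannot be told apart.

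**Figure D5:**
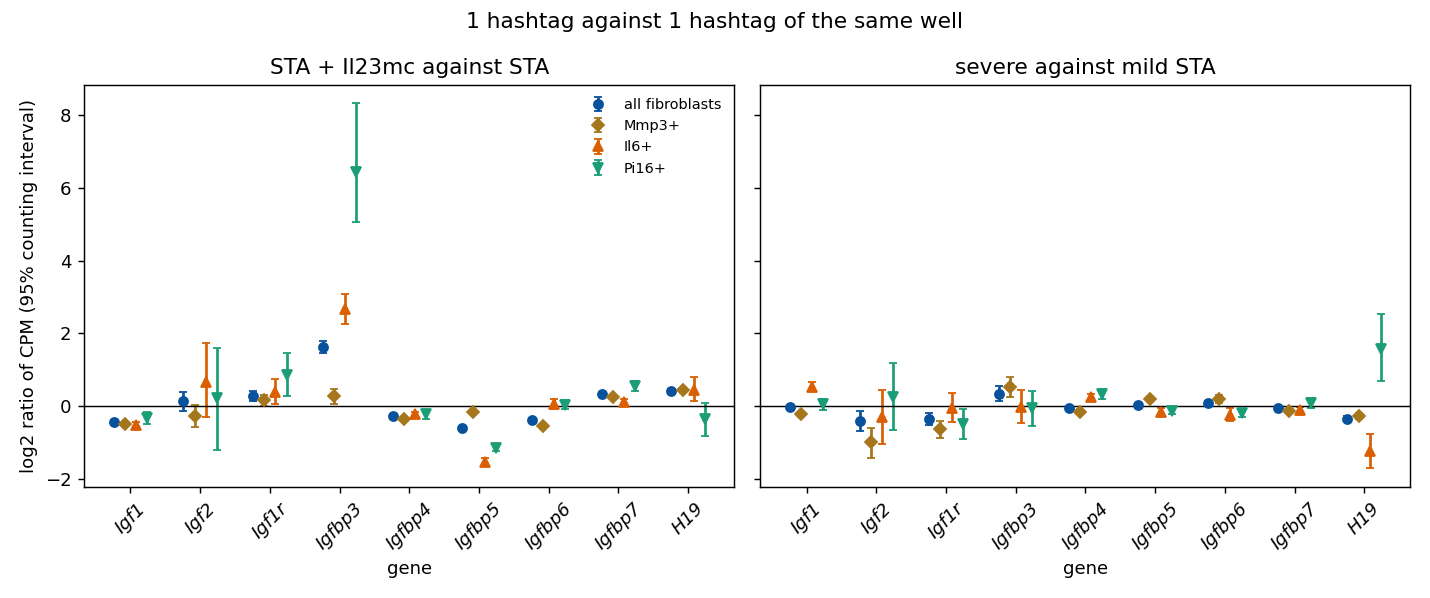
Log2 ratio of CPM with its 95% counting interval, for STA + Il23mc against STA (left) and severe against mild STA (right), 1 hashtag against 1 of the same well, in all fibroblasts and in 3 classes. With Il23mc, Igfbp3 was higher by 1.62 in all fibroblasts and by 2.66 in Il6+ cells, and Igfbp5 was lower by 0.61 in all fibroblasts.

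Beyond the 9 genes, 50 other genes of the axis and of imprinted loci were looked up in 4 lists, and 41 had enough counts to test. Of these 41, 10 passed an adjusted p of 0.05 in edgeR over all genes, 5 higher and 5 lower. This is near the 20.3% called among all genes, so the count is no result about the lists, and the genes below are given for their own values. The lists were chosen with earlier results of these data known. The adjusted p-values below are therefore a description and no independent support. The median log2 fold change of the 41 was -0.11, against 0.02 over all 12200 genes. With classes weighted equally 1 of the 10 was still called, and without the Mmp3+ cells 1, in both cases Mest.

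Among receptors and signalling genes (15 of 17 tested), 2 adaptors that bind the activated receptors rose. Grb10, itself an imprinted gene that restrains insulin and IGF signalling, went from 69.2 and 88.6 CPM in healthy to 145, 158 and 156 CPM in STA (log2 fold change 0.95 ± 0.12 SE, adjusted p = 0.00407, edgeR). Grb14, which acts likewise on the insulin receptor, rose from a low level (2.72 ± 0.28, adjusted p = 0.00273, edgeR). Pik3r1, the regulatory subunit of PI3-kinase, fell (-0.69 ± 0.14, adjusted p = 0.0165, edgeR), and so did Foxo1, a transcription factor that insulin and IGF signalling keep out of the nucleus (-0.98 ± 0.22, adjusted p = 0.0253, edgeR). Igf2r, which clears IGF2, stood at 69.2 and 76.1 CPM in healthy and did not pass (0.24 ± 0.12, adjusted p = 0.195, edgeR).

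Among the other binding proteins and proteases (7 of 11 tested), Pappa rose and Htra3 fell. Pappa encodes the protease that cleaves IGFBP4 and so frees IGFs. It went from 10.2 and 7.73 CPM in healthy to 28.1, 27.5 and 22.8 CPM in STA (log2 fold change 1.59 ± 0.19 SE, adjusted p = 0.00357, edgeR) and stood at 52.2 CPM with Il23mc. Htra3, a serine protease, went from 338 and 355 CPM to 139, 207 and 243 CPM (-0.91 ± 0.16, adjusted p = 0.0106, edgeR). In the growth hormone list (7 of 7 tested) only the receptor gene Ghr passed, with a fall from 82.1 and 83.1 CPM to 52.2, 66.1 and 54.2 CPM (-0.53 ± 0.13, adjusted p = 0.0303, edgeR).

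Of the imprinted genes (12 of 15 tested), Mest and Plagl1 rose and Sgce fell. Mest, a gene read from the paternal copy in embryonic mesoderm, went from 13.4 and 25.5 CPM in healthy to 125, 155 and 196 CPM in STA (log2 fold change 2.98 ± 0.18 SE, adjusted p = 0.000623, edgeR). Plagl1, a zinc-finger regulator of other imprinted genes, went from 37.4 and 49.95 CPM to 62.0, 89.9 and 88.5 CPM (0.81 ± 0.11, adjusted p = 0.00512, edgeR). Sgce, which encodes epsilon-sarcoglycan, fell (-0.55 ± 0.11, adjusted p = 0.0173, edgeR). Meg3 (0.15 ± 0.12), Cdkn1c (0.33 ± 0.16) and Dlk1 (-0.78 ± 0.80) did not pass.

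Likeness of pattern was measured as Pearson's r of log2(CPM + 1) over 26 sums of at least 20 cells of 1 class and hashtag, among 5569 genes with a mean of at least 20 CPM. The sums share hashtags and wells and differ in depth, so r is a description. H19 was most like Mdk (r = 0.88), which encodes the growth factor midkine, Mest (0.88) and Sorcs2 (0.85). Igf1 was most like the complement genes C1s1 (0.88) and C1rb (0.86) and Arsi (0.85), and Igfbp6 like Wwp1 (0.87), the prion protein gene Prnp (0.87) and Myoc (0.85). Values for Igf2 were lower (B830012L14Rik 0.79, Ism1 0.78, Dio2 0.77), as were those for Igfbp3 (AW551984 0.80, Ldb1 0.74, Rbpms 0.72) and Igfbp5 (S100a6 0.82, Esyt2 0.77, Zfand3 0.77).

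Innate lymphoid cells of the study, in 7 healthy or STA + Il23mc hashtags of the authors' table, had little of these RNAs other than Igf1r. Igf1r stood at 40.0 to 60.4 CPM there and Igfbp4 at 4.35 to 26.3 CPM. Igf1, Igfbp3, Igfbp5, Igfbp6 and H19 were each below 1.02 CPM in every hashtag, with 2 H19 UMIs among 23974671.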

How the data were processed

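The deposited matrices hold raw UMI counts per gene and cell barcode, made by the authors with Cell Ranger against mm10 (the file headers name version 6.1.2 and the submitters' processing notes 6.0.6); the annotation release is not given in the sources used here. The authors' cell table supplied hashtag, condition and class, UMI counts per cell and the mitochondrial fraction of each cell (a deposited fraction, at most 9.98 percent here); how classes were made and doublets removed is not given. Of 3551 cells in the fibroblast wells, 3 had no barcode in the matrix and were left out.

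UMIs were summed per hashtag over the 5 fibroblast classes, and per class. STA and healthy were compared with edgeR 4.0.16 (quasi-likelihood, TMM factors, filterByExpr, experiment as a term, R 4.3.3), with Benjamini-Hochberg adjustment over all genes tested; the single STA + Il23mc hashtag stayed out of the fit. The SE is the absolute log2 fold change divided by the square root of F. The p-values measure only the spread between hashtags. Ratios of 1 hashtag to 1 carry 95% exact binomial counting intervals. Tested on simulated counts for STA against healthy (12137 genes, 200 changed), the fit recovered 31% of 2-fold and 100% of 4-fold changes, with 3 false calls. The simulation had a fixed dispersion of 0.05 and no effect of experiment or class makeup. These rates therefore do not give the error of the real comparison. Equal class weights used limma 3.58.1 on log2(CPM + 1), and DESeq2 1.42.0 was an alternative. Sums and intervals came from Python 3.11.15 with scipy 1.17.1 and pandas 2.3.3.

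The members and the gene lists were chosen with earlier results of these data known. Named beside the members are the genes of 4 lists that passed an adjusted p of 0.05, a few of the lists' other genes as contrasts (chosen after their values were seen), and the 3 genes most like each of 6 members. Positions came from GENCODE M21. The well of STA innate lymphoid cells of experiment 1 was not used.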

Additional observations from a re-analysis of the deposited data

Results flagged for a closer look

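Igfbp3 differed in direction between 2 fibroblast classes. All 3 STA hashtags lay above the healthy hashtag of their own experiment in Il6+ cells (median log2 ratio 0.48) and all 3 below it in Pi16+ cells (median -1.95). The Il6+ side was weak. Its counting intervals were -0.10 to 1.47, -0.066 to 1.04 and 2.1e-05 to 0.94 for STA, mild and severe STA, and the fit gave 0.44 ± 0.22 (SE). In Pi16+ cells of experiment 1 the ratio rested on 4 UMIs in STA and 57 in healthy. The difference between the classes was not tested. Igfbp7 differed in direction between the experiments, with a log2 ratio of 0.10 for STA in experiment 1 and of -0.014 for mild and -0.071 for severe STA in experiment 2; this was not tested either, and the values are small. No group held enough hashtags to look for a single outlying one.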

How the results depend on the processing

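The count of members called between STA and healthy was 6, and 3 without the experiment term (no replicate block), 3 with classes weighted equally and 3 without Mmp3+ cells, an alternative added after the data were seen. It was 6 with DESeq2, upper-quartile factors or total UMIs alone, 8 without the low-count filter, 4 with all cells of the wells, and 4 to 7 when 1 hashtag was left out. The count over all genes was 2481, and 583, 253 and 120 under the first 3 of these alternatives; it was 841 to 2113 when 1 hashtag was left out. For the 50 other genes the count of 10 became 4 without the experiment term, 1 with equal weights, 1 without Mmp3+ cells, 18 without the low-count filter, and 6 to 12 when 1 hashtag was left out. No paired analysis was possible because the hashtags carry no replicate number beyond the experiment, which is in the fit.

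Leaving out either hashtag of experiment 1 leaves experiment 2 alone to decide the comparison (the count over all genes was 841 without the healthy and 865 without the STA hashtag), and leaving out healthy of experiment 2 leaves experiment 1 alone. Without Mmp3+ cells Igf1 turned to -0.13 and Igfbp5 to 0.038, and with all cells of the wells Igfbp7 turned to -0.081. Sums with 1 hashtag left out gave Igfbp7 -0.041 to 0.099. In Il6+ cells they gave Igf1 -0.16 to 0.26 and Igf1r -0.42 to 0.30, and in Pi16+ cells Igf1 -0.62 to 0.28, Igf1r -1.28 to 0.051 and Igfbp7 -0.039 to 0.44. Members called within classes numbered 3 to 4 in Il6+ and 1 to 4 in Pi16+ cells when 1 hashtag was left out, the lowest without STA of experiment 1. Without healthy of experiment 2, Igfbp3 was at -0.15 in the sum. With classes weighted equally, 3 members instead of 1 passed 2-fold with Il23mc (Igfbp3 2.80, Igf2 2.03, Igfbp5 -1.02), and none did between severe and mild STA under the alternatives tried. Where no cause is given it was not tested. Depth limits Igf2, Igfbp3 and H19 most: within classes some values rest on fewer than 20 UMIs.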
